A study of Mus musculus with 4 samples.

Results

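A set of genes of the fibroblast extracellular matrix and its growth factor receptor were followed in sorted mouse mammary cells. They are 10 of the 24442 genes in the deposited count table, taken by gene symbol: Dcn, Lum, Bgn, Fbn1, Mfap5, Dpt, Fbln1, Fbln2, Pdgfra and Fstl1. All 10 were found in the table and all passed the filter on low counts. Mfap5, Fbln1 and Pdgfra had no counts in the Lgr6- libraries and passed it through the Lgr6+ libraries alone, so they had to differ in order to be tested.

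The study sequenced RNA from mammary glands of 5-week-old female mice of the line Lgr6-eGFP-CreErt2, in which a green fluorescent protein and a tamoxifen-inducible Cre recombinase are placed at the Lgr6 locus. All 4 libraries come from that line and no treatment is listed. The Lgr6-positive population (Lgr6+) was sorted from lineage-negative cells, and the other population is labelled Lgr6 negative (Lgr6-), with 2 libraries of each. Which lineage markers were used, and how the Lgr6- cells were gated, was not stated in the sources used here. The cells depend on the reporter marking Lgr6 expression, and the labels do not say whether replicates were separate animals. The p-values therefore reflect the spread of these libraries alone, and that spread may be technical.

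Fibroblasts of the mammary stroma build the matrix around ducts and fat. Small leucine-rich proteoglycans such as decorin, lumican and biglycan bind collagen fibrils, set their spacing and carry growth factors of the TGF-beta family. Fibrillin microfibrils, to which fibulins and microfibril-associated glycoproteins attach, form the scaffold of elastic fibres and hold latent TGF-beta. Pdgfra, the alpha receptor for platelet-derived growth factors, is widely used to mark fibroblasts.

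The libraries held between 6819127 and 7167465 counts. The ribosomal RNA gene Rn45s took 30.8% of the counts of Lgr6- replicate 2 and 14.5% to 18.7% of the others, and the TMM factors ran from 0.787 in that library to 1.21; with Rn45s removed, the same 4 of the 10 genes described here passed. Lgr6 itself had 172 and 655 counts in the Lgr6+ and 3 and 10 in the Lgr6- libraries (log2 fold change 5.52, SE 1.47, edgeR adjusted p = 0.0510). Its Lgr6- counts were under the filter's level, so it entered the test through the Lgr6+ libraries alone. With all libraries kept, it passed with Rn45s removed (edgeR adjusted p = 0.0475) and in DESeq2 (8.26e-05), but not in limma-voom (0.0807). Its log2 fold change was 6.19 without Lgr6+ replicate 1 and 4.19 without Lgr6+ replicate 2. Across the 11661 genes tested, 4.49% were higher and 4.57% lower in Lgr6+ cells at an adjusted p under 0.05, and the median log2 fold change was 0.10. Scaling by library size alone moved that median to 0.56. The 10 leukocyte markers summed to 2111 and 2388 CPM (counts per library scaled with TMM factors) in the Lgr6+ and to 31338 and 35804 CPM in the Lgr6- libraries. The 10 luminal epithelial markers ran the other way, at 4866 and 4896 against 152 and 121 CPM.

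Together the 10 matrix genes reached 933 and 1121 CPM in the Lgr6+ libraries and 136 and 93.5 CPM in the Lgr6- libraries. Fbn1, Bgn, Fstl1 and Pdgfra were higher in Lgr6+ cells in edgeR's quasi-likelihood test, which is 4 of 10 beside 4.49% of all genes tested. None was lower, against 4.57% of all genes. At an unadjusted p under 0.05, 8 were higher and 0 lower, beside 1663 and 1264 of all 11661 genes tested. DESeq2 called 6 higher and 0 lower, beside 1412 and 1003 of all genes. For limma-voom it was 3 higher and 0 lower, beside 754 and 728. These counts over all genes are also the background for the gene lists further on. In 9 of 10 genes both Lgr6+ libraries lay above both Lgr6- libraries, a pattern found in 30.0% of all genes (the reverse pattern in 25.9%, and in 0 of the 10), and Dpt was the exception. The 3 genes without Lgr6- counts could only fall on the higher side. Of the other 7, 3 were higher and 6 did not overlap, beside 3.66% and 27.2% of the 11209 tested genes that had Lgr6- counts. The median log2 fold change of the 10 was 3.73, or 3.04 with the genes lacking Lgr6- counts set at their lower bounds. In bulk libraries, a higher level from more cells of a type and from more RNA per cell cannot be told apart.

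**Figure D1:**
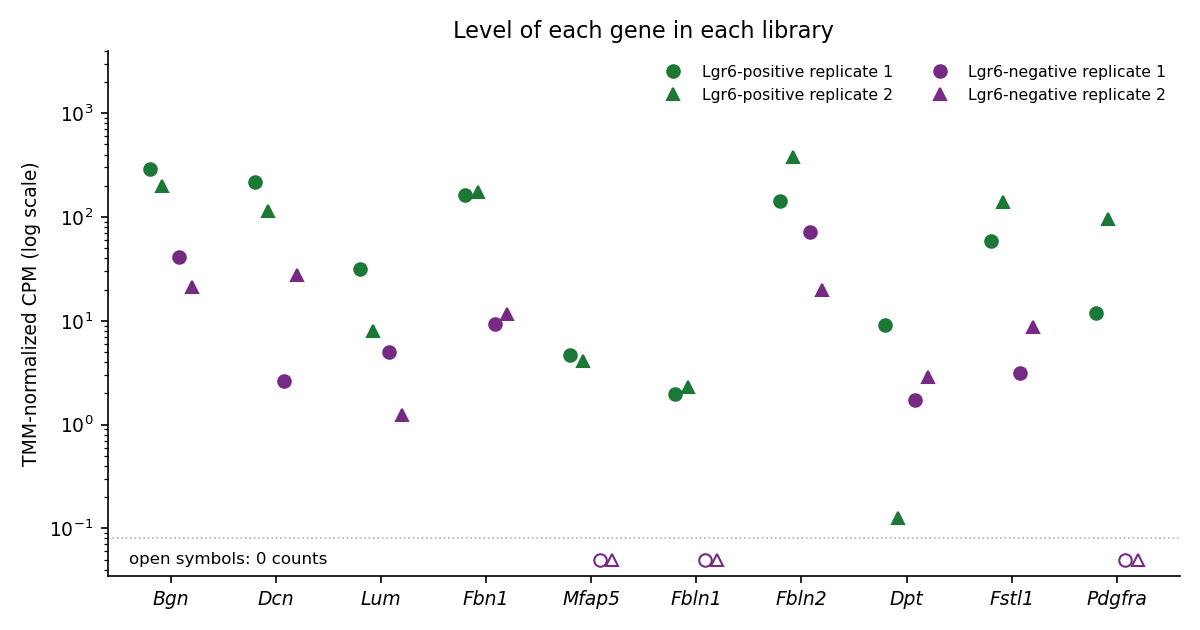
Level of each gene in each library, as TMM-normalized CPM on a log axis; circles are replicate 1 and triangles replicate 2, and open symbols at the bottom stand for 0 counts. Fbn1 shows tight pairs at 163 and 175 CPM against 9.36 and 11.7 CPM, whereas Dpt has its Lgr6+ replicate 2 at 0.127 CPM, below both Lgr6- libraries.

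Bgn encodes biglycan, a proteoglycan with chondroitin or dermatan sulfate chains, and lies on the X chromosome from 73483602 to 73495933 (GRCm38, plus strand). It had 2362 and 1576 counts in the Lgr6+ libraries and 266 and 120 in the Lgr6- libraries, or 289.6 and 199.7 CPM against 41.5 and 21.3 CPM. The populations did not overlap, the lowest Lgr6+ library being 4.81 times the highest Lgr6- one. The log2 fold change was 2.96 (SE 0.59, edgeR adjusted p = 0.0168), and the call held in all 13 alternative analyses.

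Dcn encodes decorin, the proteoglycan that binds collagen fibrils and TGF-beta, and spans bases 97479609 to 97518143 of chromosome 10. Its counts were 1787 and 908 in Lgr6+ libraries against 17 and 157 in Lgr6- libraries, or 219 and 115 CPM against 2.65 and 27.9 CPM. The Lgr6+ libraries were higher, but the Lgr6- libraries lay 10.5-fold apart from each other. The log2 fold change of 3.45 (SE 1.04) did not pass (edgeR adjusted p = 0.0747). The log2 fold change was 5.95 without Lgr6- replicate 2 and 3.82 without Lgr6+ replicate 2. With all 4 libraries, Dcn passed in DESeq2 (adjusted p = 0.00467) but not in limma-voom (0.0710).

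Lum encodes lumican, a proteoglycan that binds collagen fibrils, and is the next annotated gene downstream of Dcn, 46984 bases away at 97565128 to 97572703. It had 256 and 63 counts against 32 and 7, or 31.4 and 7.98 CPM against 4.99 and 1.24 CPM. The lowest Lgr6+ library exceeded the highest Lgr6- one by 1.60 times only. Its log2 fold change of 2.65 (SE 1.70, edgeR adjusted p = 0.404) did not pass in any of 13 alternatives, and was 1.34 without Lgr6+ replicate 1. The neighbours differed in the Lgr6- libraries, where Dcn was higher in replicate 2 and Lum in replicate 1.

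Fbn1 encodes fibrillin 1, the main subunit of the microfibril, and occupies 125300594 to 125507993 on the minus strand of chromosome 2. Its counts were 1328 and 1385 in the Lgr6+ and 60 and 66 in the Lgr6- libraries. The lowest Lgr6+ library was 13.9 times the highest Lgr6- one. The log2 fold change was 4.002 (SE 0.66, edgeR adjusted p = 0.00803), it stayed between 3.83 and 4.46 over 13 alternatives and passed in each. Exons of Gm9913 cover 20.1% of its exonic bases, and reads there could come from either gene.

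Mfap5 encodes microfibril-associated glycoprotein 2, a small protein on fibrillin microfibrils, and Fbln1 encodes fibulin 1, a calcium-binding matrix glycoprotein. Mfap5, at 122505845 to 122529290 on chromosome 6, had 38 and 32 counts in the Lgr6+ libraries (4.66 and 4.05 CPM) and 0 in both Lgr6- libraries. Fbln1, at 85205949 to 85286535 on chromosome 15, had 16 and 18 counts (1.96 and 2.28 CPM) and 0 in both Lgr6- libraries. In both genes the 2 Lgr6+ libraries were close to each other. A count of 0 allows up to 3 counts, or 0.468 and 0.533 CPM in the Lgr6- libraries, for counting error only. Against that floor in each library, the Lgr6+ mean of Mfap5 was at least 8.70-fold and that of Fbln1 at least 4.24-fold higher. With only Lgr6+ replicate 1 or 2 kept, the bounds were 9.31 and 8.10 for Mfap5 and 3.92 and 4.56 for Fbln1. None of these bounds allows for counting error in the Lgr6+ libraries. Neither passed edgeR's test (adjusted p = 0.121 and 0.148).

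Fbln2 encodes fibulin 2, which binds fibrillin and basement membrane proteins, at 91212455 to 91272540 on chromosome 6. It had 1163 and 3013 counts against 464 and 111, or 143 and 382 CPM against 72.4 and 19.7 CPM. The libraries separated by 1.97 times between the nearest pair. The log2 fold change of 2.51 (SE 0.75) did not pass (edgeR adjusted p = 0.0742). Without Lgr6+ replicate 1 it was 3.05, without Lgr6- replicate 1 it was 3.72, and without Lgr6+ replicate 2 it was 1.60. With all libraries kept, Fbln2 passed in DESeq2 (adjusted p = 0.0116) but not in limma-voom (0.0930).

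Dpt encodes dermatopontin, a small matrix protein that binds decorin and promotes collagen fibril assembly, on chromosome 1 from 164796644 to 164824266. Its counts were 75 and 1 in the Lgr6+ and 11 and 16 in the Lgr6- libraries. The populations overlapped, with Lgr6+ replicate 1 the highest library and replicate 2 the lowest. The log2 fold change was 1.03 (SE 2.14, edgeR adjusted p = 0.844), and -3.98 without Lgr6+ replicate 1 (adjusted p = 0.652, within 0.652 to 0.984 over the alternatives).

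Fstl1 encodes follistatin-like 1, a secreted glycoprotein of the SPARC family, on chromosome 16 from 37776873 to 37836514. It had 484 and 1096 counts against 20 and 49, or 59.3 and 139 CPM against 3.12 and 8.71 CPM. The populations did not overlap. The log2 fold change was 4.07 (SE 1.005, edgeR adjusted p = 0.0393). The call was lost without Lgr6+ replicate 2 (3.30, adjusted p = 0.162), without Lgr6- replicate 1 (3.50, 0.0545) and in limma-voom (0.108); over the alternatives it ran between 1.07e-04 and 0.162.

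Pdgfra spans bases 75152292 to 75198215 of chromosome 5. Its counts were 97 and 751 in Lgr6+ cells and 0 in both Lgr6- libraries. The Lgr6+ pair lay 8.00-fold apart, at 11.9 and 95.2 CPM. Against 3 counts per Lgr6- library the gene was at least 107-fold higher, or at least 23.8-fold without Lgr6+ replicate 2 and at least 190.1-fold without replicate 1. edgeR gave an adjusted p of 0.0216, and 0.149 without Lgr6+ replicate 2, the highest in a range from 9.92e-07. Exons of Gm42802, Gm42803 and Mir7025 cover 6.50% of its exonic bases.

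**Figure D2:**
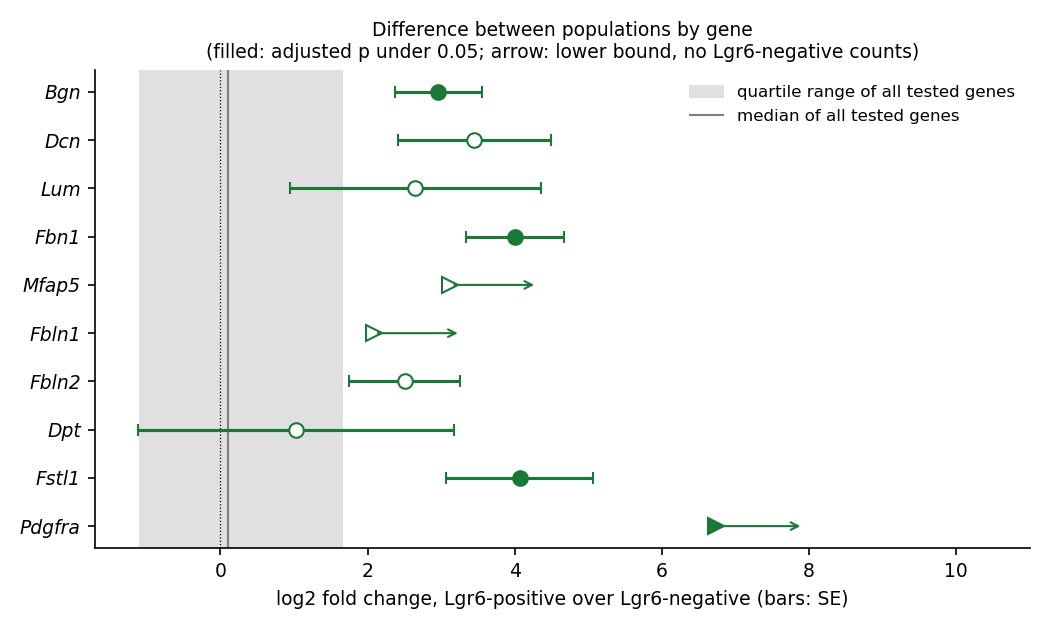
Log2 fold change of Lgr6+ over Lgr6- for each gene, with SE bars; filled symbols passed an adjusted p under 0.05, and triangles with arrows are lower bounds for genes without Lgr6- counts. The grey band is the range between the quartiles of all tested genes, -1.10 to 1.65, and only Dpt has its estimate inside it.

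**Figure D3:**
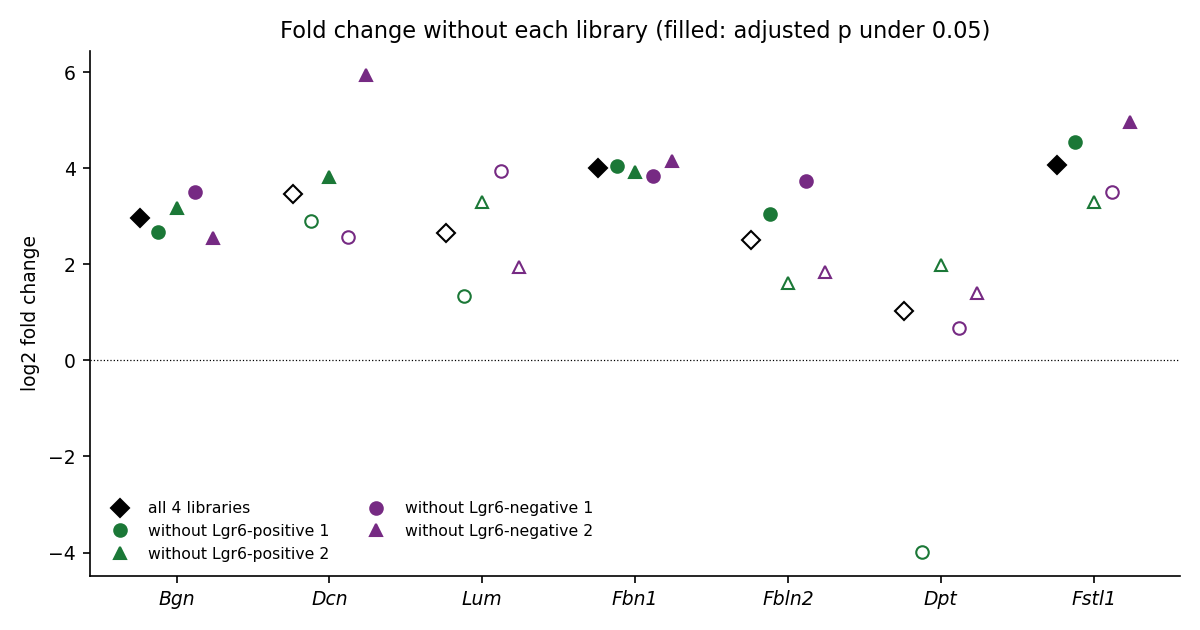
Log2 fold change with all 4 libraries (diamond) and without each library in turn, for the 7 genes with Lgr6- counts; filled symbols passed an adjusted p under 0.05. Bgn and Fbn1 are filled at every point, while Dpt falls to -3.98 without Lgr6+ replicate 1.

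Per kilobase of exon, so that genes can be set side by side, the order in the Lgr6+ cells began with Fbln2 at 41.2 and Bgn at 40.1 CPM per kb on average. Dcn (28.6), Fstl1 (20.2) and Fbn1 (13.9) followed, then Lum (8.04), Pdgfra (5.34), Dpt (2.70), Mfap5 (1.21) and Fbln1 (0.486). Neighbours at the top of this order did not separate: Fbln2 stood at 22.4 and 59.9 CPM per kb in its libraries, a span that holds both values of Bgn, 47.5 and 32.7. Replicate 1 alone ranked Bgn and Dcn as its 2 highest, and replicate 2 ranked Fbln2 and Bgn. In the Lgr6- cells Fbln2 (7.23) and Bgn (5.15) again had the highest means, followed by Dcn (2.62). Bgn was second of the 10 in both Lgr6- libraries, whereas Dcn ranked 7 in replicate 1 and 1 in replicate 2. These lengths are of all annotated exons joined, so the order would shift with the isoforms in use.

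The 10 genes did not vary together between replicates. Across genes at large, replicates also differed beyond counting noise. The chi-square per degree of freedom was 101 in the Lgr6+ pair (12781 genes) and 86.4 in the Lgr6- pair (11485 genes). The share of all genes outside a 95% counting interval was not computed, so the counts here describe the 10 genes only. In the Lgr6+ pair 4 genes were lower in replicate 2 beyond counting error: Bgn at 0.689 times replicate 1 (95% counting interval 0.646 to 0.735), Dcn at 0.525, Lum at 0.254 and Dpt at 0.0138 (3.44e-04 to 0.0791, from 1 count). Another 3 were higher there, Fstl1 at 2.34 times, Fbln2 at 2.68 times and Pdgfra at 8.00 times (6.47 to 9.99). Fbn1, Mfap5 and Fbln1 had intervals that include equal levels. The 3 small leucine-rich proteoglycans and dermatopontin were thus on the side of replicate 1, and the receptor, fibulin 2 and follistatin-like 1 on the side of replicate 2. As a share of the summed CPM of the 10 genes, Bgn and Dcn made up 31.1% and 23.5% in replicate 1 but 17.8% and 10.3% in replicate 2, where Fbln2 took 34.1%. These intervals reflect read counting alone: the reads were amplified and carry no molecular identifiers, so they do not stand for separate molecules.

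**Figure D4:**
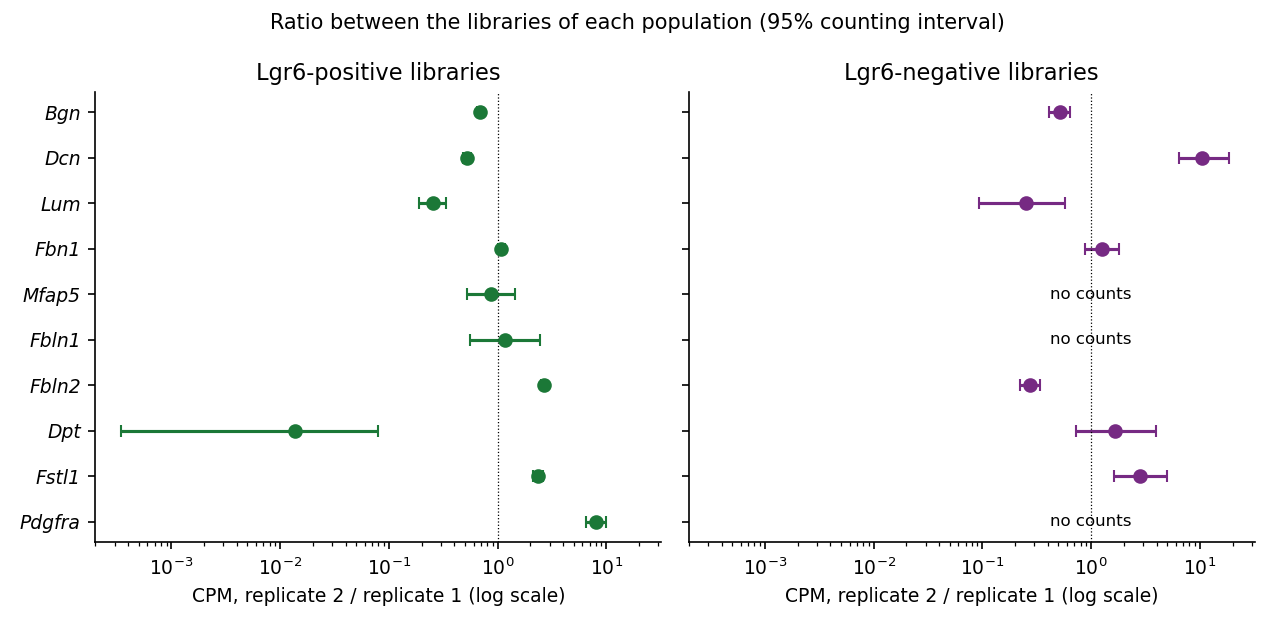
CPM in replicate 2 divided by replicate 1 within each population, on a log axis, with exact 95% counting intervals; the dotted line marks equal levels. In the Lgr6+ libraries the ratios run from 0.0138 for Dpt to 8.00 for Pdgfra, and in the Lgr6- libraries from 0.249 for Lum to 10.5 for Dcn.

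In the Lgr6- pair Dcn and Fstl1 were higher in replicate 2, at 10.5 times (6.37 to 18.5) and 2.79 times. Bgn (0.514), Lum (0.249) and Fbln2 (0.273) were lower there. Fbn1 was the only one of the 10 whose interval included equal levels in both populations; Mfap5 and Fbln1 could not be compared among Lgr6- cells, where they had no counts.

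Promoter sequences of 7 of the 10 genes were found in RefSeq (GRCm38.p6), as windows from 250 bases before to 50 after the start. The bases upstream of Bgn and Pdgfra are printed because both genes passed the test and these stretches hold no annotated exon; they contrast a promoter with several GC boxes and one without. Capitals mark matches to GC box GGGCGG on either strand, and 2 of the 3 in Bgn overlap.
Bgn, chrX:73483351-73483600, plus strand: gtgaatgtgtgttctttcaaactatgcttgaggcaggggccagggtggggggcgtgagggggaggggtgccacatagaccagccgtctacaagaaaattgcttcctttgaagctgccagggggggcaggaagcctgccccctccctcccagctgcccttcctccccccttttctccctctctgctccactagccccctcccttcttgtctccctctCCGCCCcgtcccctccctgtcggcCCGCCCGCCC
Pdgfra, chr5:75152001-75152250, plus strand: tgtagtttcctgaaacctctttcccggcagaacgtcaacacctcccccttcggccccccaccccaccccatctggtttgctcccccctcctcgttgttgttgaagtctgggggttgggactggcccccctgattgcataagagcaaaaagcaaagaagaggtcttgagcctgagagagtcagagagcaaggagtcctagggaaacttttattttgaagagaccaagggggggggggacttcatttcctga
The 7 genes had 8 windows, as Fbln1 has 2 that overlap. GGGCGG occurred in 5 of the 8 windows (Bgn, Fbn1, Fstl1, Fbln2 and 1 of the 2 of Fbln1), beside 35.7% of all 32851 promoter windows. In Fbn1 and Fbln2 all 250 bases before the start are annotated exon. The same holds for 182 of them in Fstl1 and 59 in the matching window of Fbln1, so these are not purely upstream sequence. In Fbln2 and Fbln1 a match also lay after the start, at 6 and 11. Those 5 windows were 60.3% to 66.7% G or C, and the windows without a match 48.7% to 51.7%, beside a median of 52.7% over all windows. The part of base content in these matches was not tested. The TATA box letters TATAAA, in 13.6% of all windows, matched in Dpt only, at position 12 after the start and not upstream of it. The RUNX motif TGTGGT (16.8%) was also found in Dpt only, at position -9. Neither the AP-1 motif TGANTCA (7.81%) nor the TEAD motif GGAATG (14.7%) matched in the 7 genes. All were searched on both strands, and a match describes letters in these windows and not a bound site.

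The other small leucine-rich proteoglycans gave 1 higher gene, 0 lower and 6 that did not pass of 7 tested, all 7 with positive fold changes, and 6 further genes were too low to test. At an unadjusted p under 0.05, 3 were higher and 0 lower, and DESeq2 called 2 and 0, limma-voom 1 and 0. Prelp, a proteoglycan that anchors basement membranes to connective tissue, had 4293 and 4935 counts against 129 and 295. It was at 575.9 ± 69.9 against 36.3 ± 22.8 CPM (mean ± SD, 2 libraries per population) with a log2 fold change of 3.99 (SE 0.56, edgeR adjusted p = 0.00364). Both Lgr6+ libraries lay above both Lgr6- libraries. Fmod, which encodes fibromodulin, had 1026 and 17 counts against 1 and 6, and Chad, which encodes the cartilage protein chondroadherin, 2483 and 41 against 0 and 94. Both were far higher in Lgr6+ replicate 1 than in replicate 2, on the same side as Dcn, Lum and Bgn. Prelp and Aspn, the asporin gene with 124 and 252 counts against 0 and 34, lay on the other side, at 1.19 times (1.14 to 1.24) and 2.10 times (1.69 to 2.63) their replicate 1 level in replicate 2. The adjusted p of Fmod, Chad and Aspn were 0.0765, 0.248 and 0.445. Whether Chad and Fmod passed depended on the libraries kept. For Chad it also depended on the filter. With all libraries and no filter it passed (edgeR adjusted p = 2.41e-05), but not in DESeq2 (0.492) or limma-voom (0.377). Without the filter the list held 3 higher genes. Without Lgr6+ replicate 2, where Chad and Fmod were low, the fit holds no spread within the Lgr6+ cells and cannot decide. Chad had a log2 fold change of -0.69 without Lgr6+ replicate 1 (0.899, its highest), and Fmod reached 0.825 over the alternatives.

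The elastic fibre and microfibril list had 19 tested genes, of which edgeR called 3 higher and 1 lower. Its median log2 fold change was 3.41 (3.11 with lower bounds) beside 0.10 for all genes. Without Lgr6+ replicate 2, 5 were higher, and 2 were lower without Lgr6+ replicate 1 and without Lgr6- replicate 1. The higher genes were Ltbp1 and Ltbp3, latent TGF-beta binding proteins, and Thsd4, which encodes a protein that binds fibrillin 1. Ltbp3 had 1219 and 1597 counts against 3 and 5 (log2 fold change 7.99, SE 0.87, edgeR adjusted p = 0.00132). Thsd4 had 1402 and 1848 against 0 and 10 (7.84, SE 1.29, 0.00765), and Ltbp1 2218 and 1548 against 111 and 31 (4.35, SE 0.74, 0.00863). In all 3 the Lgr6+ libraries lay above the Lgr6- ones. Ltbp3 and Thsd4 were under the filter's level in both Lgr6- libraries. Those 2 genes entered the test through the Lgr6+ libraries alone, so they had to differ in order to be tested. Emilin2, a glycoprotein of the elastin microfibril interface family, was the lower gene, with 68 and 0 counts against 2995 and 3139 (adjusted p = 0.0209, and 0.0558 in DESeq2 in a range from 2.06e-25). Named after their values were seen, the core genes Eln (127 and 332 against 28 and 3 counts) and Fbln5 (338 and 283 against 176 and 104) did not pass, at 0.228 and 0.731. Fbn2, Mfap2 and Mfap4 had at most 12 counts in any library and were not tested.

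**Figure D5:**
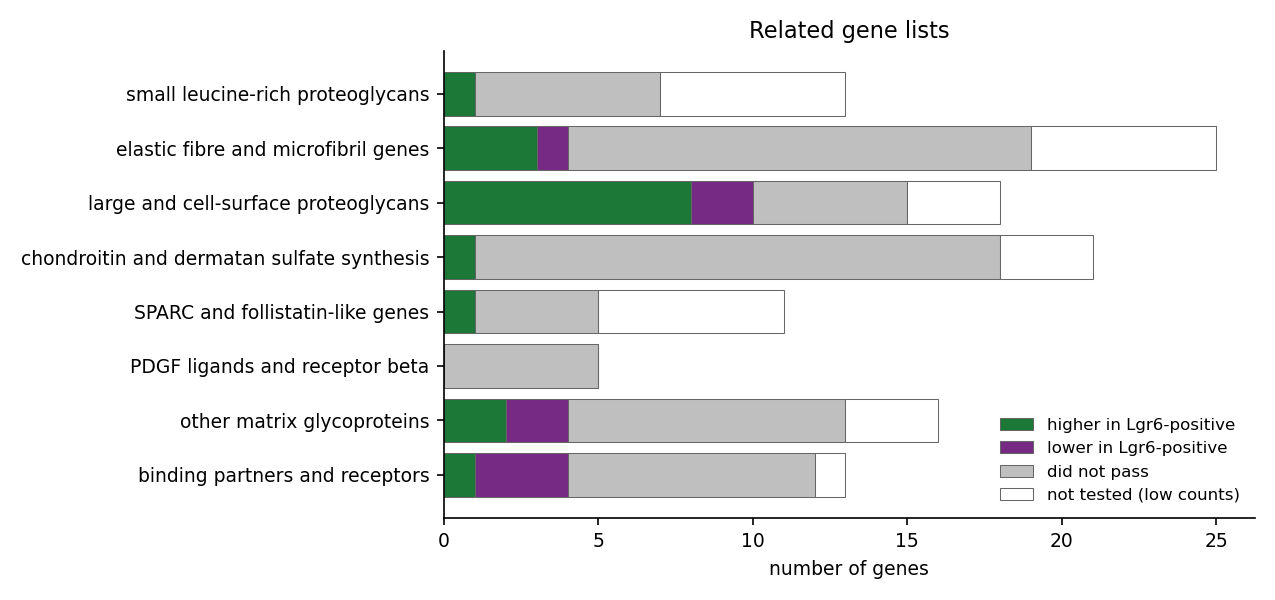
Number of genes in each related list that were higher, lower, did not pass or were not tested. Large and cell-surface proteoglycans hold the most calls, 8 higher and 2 lower, and the synthesis genes of chondroitin and dermatan sulfate have 1 call among 18 tested.

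Large and cell-surface proteoglycans split by gene, with 8 of 15 tested higher in edgeR, 2 lower and 5 that did not pass. DESeq2 called 8 higher and 2 lower, limma-voom only 5 higher and 2 lower. Of the 8 higher genes in edgeR, 2 (Acan and Gpc4, named after their values were seen) had no Lgr6- counts and entered the test through the Lgr6+ libraries alone. Hspg2, which encodes perlecan of basement membranes, had 3600 and 2922 counts against 133 and 199 (log2 fold change 3.85, SE 0.51, edgeR adjusted p = 0.00281). Sdc4, a syndecan of the cell surface, had 6976 and 6280 against 384 and 483 (3.50, SE 0.39, 0.00143). The lower genes were Srgn, the intracellular proteoglycan of leukocyte granules, at 282 and 186 against 5192 and 5385 counts, and Vcan, the versican gene, at 524 and 519 against 3442 and 2548. Srgn fell by 4.92 and Vcan by 2.93 on the log2 scale (edgeR adjusted p = 5.28e-04 and 0.00390).

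Enzymes that build the chondroitin and dermatan sulfate chains of these proteoglycans were mostly not called. Of 18 tested, 1 was higher, 0 were lower and 17 did not pass, with a median log2 fold change of -0.51. At an unadjusted p under 0.05, 1 was higher and 3 lower, and DESeq2 called 1 and 3, limma-voom 1 and 1. The higher gene, Csgalnact1, named after its value was seen, starts chondroitin chains and had 60 and 785 counts against 0 and 0. It entered the test through the Lgr6+ libraries alone, so it had to differ in order to be tested. It was at least 107-fold higher (edgeR adjusted p = 0.0277), with most counts in replicate 2, as for Pdgfra. Without that library the bound was 14.7-fold and the call was lost (0.288, in a range from 2.32e-06), and without replicate 1 the bound was 198.7-fold. Without Lgr6+ replicate 1, 4 genes of the list were lower, and 1 without Lgr6+ replicate 2 and 2 without Lgr6- replicate 2. Fam20b, a kinase of the linker region, had 516 and 613 against 202 and 255 counts, and Chst11, a chondroitin sulfotransferase, 439 and 345 against 51 and 132. Chsy1, a chondroitin synthase, had 375 and 2 against 678 and 514, and Csgalnact2 42 and 0 against 782 and 277. None of these 4 passed (adjusted p from 0.104 to 0.570). Without Lgr6+ replicate 1, the log2 fold change of Chsy1 was -8.50. That fit holds no spread within the Lgr6+ cells and cannot decide whether Chsy1 differed. Whether Csgalnact2 passed depended on the library left out, and such a fit cannot decide for the same reason.

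Among relatives of Fstl1, 1 of 5 tested was higher, 0 lower, and 4 did not pass; at an unadjusted p under 0.05 there were 4 and 0, and DESeq2 called 4 and 0, limma-voom 3 and 0. Sparc, the matricellular protein that gives the family its name, had 14416 and 5018 counts against 1209 and 369 (log2 fold change 3.24, SE 0.63, edgeR adjusted p = 0.0149). Sparcl1, a related matricellular protein, had 1762 and 3039 against 421 and 36 and did not pass (0.0784), but passed without any 1 of the 4 libraries (6.07e-07 to 0.0421, in a range up to 0.0848). The list then held 2 higher genes, or 3 without Lgr6+ replicate 1. Fst, follistatin, had 61 and 56 against 209 and 10 and Spock2 174 and 38 against 1 and 0, also without passing (0.745 and 0.112).

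Of 5 genes for PDGF ligands and the beta receptor, 0 passed in edgeR, where 2 were higher and 0 lower at an unadjusted p under 0.05. DESeq2 called 2 higher and 0 lower, limma-voom 1 and 0. Pdgfrb, the receptor of pericytes and fibroblasts, had 360 and 86 counts against 6 and 49. Its Lgr6+ libraries thus leaned to replicate 1, whereas Pdgfra leaned to replicate 2. Pdgfc, a ligand of the alpha receptor, had 315 and 168 against 4 and 19, and Pdgfa, another, 77 and 17 against 0 and 23. Pdgfb had 159 and 18 against 75 and 276. Pdgfd, a ligand of the beta receptor named after its values were seen, had 78 and 41 counts against 0 and 0 and entered the test through the Lgr6+ libraries alone. Adjusted p ran from 0.103 for Pdgfd to 0.775 for Pdgfa.

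Other matrix glycoproteins gave 2 higher, 2 lower and 9 that did not pass of 13 tested. With either Lgr6- library left out, 5 were higher and 3 lower. Tnc and Thbs2, tenascin C and a thrombospondin named after their values were seen, had 412 and 438 and 125 and 302 counts in the Lgr6+ libraries and 0 in the Lgr6- libraries, which puts Tnc at least 106-fold and Thbs2 at least 53.5-fold higher. Both entered the test through the Lgr6+ libraries alone, so they had to differ in order to be tested. The call of Thbs2 (edgeR adjusted p = 0.0402) was lost without Lgr6+ replicate 2 (0.0860, in a range from 3.91e-05), where its bound was 30.6-fold. Thbs1, another thrombospondin, had 3214 and 3743 against 10429 and 8523 counts (log2 fold change -1.86, SE 0.28, edgeR adjusted p = 0.00523). Tgfbi, a TGF-beta-induced matrix protein, had 271 and 1528 against 7003 and 6369 (-3.29, SE 0.70, 0.0223). Fn1, fibronectin, had 7021 and 3460 against 9525 and 8725 counts and Postn, periostin, 890 and 696 against 195 and 16 (adjusted p = 0.0643 and 0.182). Whether Fn1 and Postn passed depended on the library left out. Such a fit holds no spread within the population that lost a library and cannot decide.

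Of 12 tested receptors and growth factors proposed to bind these proteins, 1 was higher, 3 were lower and 8 did not pass. Tlr2, a Toll-like receptor for which biglycan is a ligand, had 170 and 172 against 2232 and 2080 counts (log2 fold change -4.07, SE 0.49, edgeR adjusted p = 0.00194). Cd44, a hyaluronan receptor, had 2410 and 3111 against 13976 and 11985 (-2.64, SE 0.28, 0.00130), and Tgfb1 260 and 320 against 1087 and 1621 (-2.66, SE 0.57, 0.0220). Tgfb1 lost its call without Lgr6- replicate 2 (0.123) and with library-size scaling (0.0537), in a range from 4.01e-04. Tgfb3, named after its value was seen, was the higher gene, with 1078 and 1875 against 42 and 52 counts (4.55, SE 0.71, 0.00585). Lrp1, an endocytic receptor of decorin, had 1976 and 3020 against 4859 and 4446 counts (-1.31, SE 0.35, 0.0534), and passed without Lgr6+ replicate 2 (0.00126, in a range up to 0.162). The count of higher genes was 3 without that library and 2 without replicate 1 of either population. These lower genes moved with the leukocyte markers, of which 10 of 10 were lower with a median log2 fold change of -4.10; their part in the result was not tested.

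The label of fibroblast genes was checked against 17 other fibroblast markers. Of 14 tested, 4 were higher, 0 lower and 10 did not pass in edgeR, beside 4.49% higher and 4.57% lower of all genes tested. At an unadjusted p under 0.05 there were 8 and 2, in DESeq2 8 and 2 and in limma-voom 7 and 0. Summed over the list, their level was 824 and 380 CPM in the Lgr6+ and 133 and 177 CPM in the Lgr6- libraries. Col1a2, a chain of type I collagen, had 1432 and 983 counts against 42 and 80 (log2 fold change 3.85, SE 0.76, edgeR adjusted p = 0.0162). Its partner chain Col1a1 had 1432 and 160 against 48 and 92 and did not pass (0.130). Col1a1 was lower in Lgr6+ replicate 2, and without that library the fit holds no spread within the Lgr6+ cells and cannot decide. Twist2 had no counts in any library, and Col6a1, Col6a2, Pcolce, Clec3b, Prrx1 and Fap had none in the Lgr6- libraries; the calls of Col6a1 and Col6a2 are 2 of the 4, and both entered the test through the Lgr6+ libraries alone. Pi16, a marker of adventitial fibroblasts, and Thy1, both named after their values were seen, went the other way, with 52 and 53 against 285 and 294 and with 69 and 1 against 355 and 324 counts. Neither passed (edgeR adjusted p = 0.137 and 0.188). Thy1 was low in Lgr6+ replicate 2. Without Lgr6+ replicate 1 the fit holds no spread within the Lgr6+ cells and cannot decide for Thy1. In direction, 12 of the 14 tested markers had positive fold changes, beside 52.3% of all genes tested, and their median log2 fold change was 3.44. Most fibroblast markers thus leaned to the Lgr6+ libraries, but 10 of the 14 tested did not pass and not all went that way. The 10 genes are described by their names and not as a measure of that cell type.

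Markers of other cell types moved in the same libraries. Of 7 tested pericyte and smooth muscle markers 1 was higher and 0 lower (3 and 0 unadjusted, 3 and 0 in DESeq2, 2 and 0 in limma-voom), and the 10 in the list summed to 483 and 314 against 47.4 and 33.6 CPM. Higd1b was at 0 in all libraries, and Kcnj8 and Des in the Lgr6- ones. Endothelial markers were higher in 7 of 12 and lower in 0 (8 and 0 unadjusted, 8 and 0 in DESeq2, 6 and 0 in limma-voom), at 1826 and 2100.3 against 314 and 183 CPM. Basal epithelial markers were higher in 5 of 10 and lower in 0 (8 and 0 unadjusted, 8 and 0 in DESeq2, 4 and 0 in limma-voom), at 2356 and 2448 against 257 and 273 CPM. Of 4 tested adipocyte markers 1 was higher and 0 lower (2 and 0 unadjusted, 1 and 0 in DESeq2, 1 and 0 in limma-voom), with a median log2 fold change of -0.09, and 8 of the 12 were too low to test. Their sum of 642 and 553 against 54.9 and 100.1 CPM was, in the Lgr6+ libraries, mostly Lpl, lipoprotein lipase, which was the higher gene at 435 and 443 against 31.7 and 22.6 CPM. Cidec, Lep and Retn were at 0 in every library. Of 3 tested Schwann cell markers 1 was higher and 0 lower (1 and 1 unadjusted, 1 and 1 in DESeq2, 0 and 0 in limma-voom), and 5 of the 8 were too low to test. Their sum, 107 and 135 against 228 and 139 CPM, followed Mbp, myelin basic protein, at 48.2 and 49.9 against 217 and 127 CPM, which did not pass (edgeR adjusted p = 0.0884, and 0.0303 in DESeq2 in a range up to 0.483). The higher gene was Sox10, a transcription factor of neural crest cells, with 436 and 470 counts against 19 and 4 (log2 fold change 4.92, SE 1.29, edgeR adjusted p = 0.0483). Sox10 lost its call without Lgr6+ replicate 2 (0.0512), without Lgr6- replicate 2 (0.116) and in limma-voom (0.0512), in a range from 5.89e-05. Red cell markers were higher in 4 of 5 tested and lower in 0 (4 and 0 in DESeq2 and in limma-voom), at 651 and 598 against 18.4 and 3.91 CPM, with a median log2 fold change of 6.61, or 6.04 with lower bounds. The 4 are globin genes, whose near-identical copies can share reads; Hba-a2 and Hbb-bs had no Lgr6- counts. Mesothelial and skeletal muscle markers stayed at or under 1.35 and 8.71 CPM in sum. The part of any of these cells in the levels of the 10 genes was not tested.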

How the data were processed

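The values are expected counts for each gene, estimated and deposited by the authors without scaling for depth. Per the submitters' processing notes, RSEM 1.2.22, STAR 2.4.2a and mm10 were used. For annotation and strand setting, the sources used here give nothing. Per the labels' protocols, RNA of 7 to 25 pg per µl (integrity 5 to 8) was amplified over 18 PCR cycles and read as pairs of 50 bases.

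Values were rounded to whole counts and tested with edgeR 4.0.16 (R 4.3.3): TMM, filterByExpr (minimum count 10, total 15), glmQLFit, then glmQLFTest (group alone in the model), Benjamini-Hochberg over 11661 genes, threshold 0.05. SE was taken as the size of the log2 fold change divided by the root of the F statistic. DESeq2 1.42.0, limma-voom (limma 3.58.1) and 11 other alternatives were run, and the steps were tested on simulated data. Replicates differed beyond counting noise (chi-square per degree of freedom 101 and 86.4). Positions and lengths came from GENCODE M21 (GRCm38, also called mm10). Protein sequences were not used here.

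The 10 genes and all lists were chosen with earlier results of these data known. Besides the 10 genes and Lgr6, the text names the 4 genes of highest mean CPM among those tested in each of 8 related lists and the 2 of highest mean CPM in each marker list, not all of which are printed; others are said to be chosen after their values were seen.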

Additional observations from a re-analysis of the deposited data

How the results depend on the processing

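The count of higher genes, 524, was 967 without the filter and 1412 in DESeq2, and ran from 678 to 956 when single libraries were left out. The count of lower genes, 533, was 327 with library-size scaling (65.8% of calls then higher, against 49.6%), 854 without the filter and 1003 in DESeq2, and ran from 540 to 1030 without single libraries. Of the 10 genes, 3 to 5 were higher without single libraries and 0 lower in all 13 alternatives. Dpt changed sign in limma-voom (-0.79) and with the replicate block (-0.73), and its log2 fold change ran from -3.98 to 1.98 without single libraries. Without single libraries Chad ran from -0.69 to 13.16, Fst from -2.18 to 2.01 and Ckm, a muscle gene, from -7.03 to 5.96; the cause was not tested. The labels give shared replicate numbers but no shared animal or batch, and deviations of same-numbered libraries correlated at -0.02 across genes. With the number as a replicate block, 678 genes were higher, 662 lower and 6 of the 10 passed, Dcn (adjusted p = 0.00975) and Fbln2 (0.0295) being added. For the 10 genes, 109 of the values under alternatives kept direction and call, 10 gained it, 4 lost it and 3 reversed. Mfap5, Fbln1 and Dpt were not tested under the stricter filter, and DESeq2 gave Fbln1 no adjusted p. With 1 library left in a population, it is assumed to vary like the other pair, so a call gained in such a fit cannot decide. With 0 to 75 counts in Dpt, Mfap5 and Fbln1, depth limits what can be detected there.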
